A study of Mus musculus with 2 samples.

Results

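Cholesterol synthesis and its control through the transcription factor SREBP2 were examined in alveolar macrophages, the resident phagocytes of the lung airspaces, in a comparison of samples labelled wild type and knockout for PIKfyve, a kinase of endosome and lysosome membranes whose product is phosphatidylinositol 3,5-bisphosphate. The members are the genes of a list of 28 enzymes and regulators that have a row (probe set) naming no other gene on the Affymetrix array. Of these, 26 had such a row, with 27 rows in all, among 22180 genes measured; Idi1 and Acat2 were not analysed here. The 2 samples were sorted lung cells of adult C57BL6 littermates, kept free of specific pathogens, that excluded DAPI and carried Siglec-F and CD11c. The sample labelled wild type carries floxed Pikfyve alleles without Cre, and the sample labelled PIKfyve KO carries the same alleles with lysm_cre. That Cre is driven by the lysozyme 2 gene, which is active across myeloid cells and not in alveolar macrophages alone. Each genotype has a single array, and how many mice gave its RNA is not stated, so no value below has a replicate error and no difference was tested.

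Cells make cholesterol from acetyl-CoA by way of mevalonate, the isoprenoid farnesyl diphosphate, squalene and lanosterol. Most enzymes of this route are under SREBP2, a membrane-bound factor that SCAP escorts from the endoplasmic reticulum to the Golgi when sterols are low, where a pair of proteases releases its active part. Sterols keep SCAP and SREBP2 in the endoplasmic reticulum through INSIG proteins. Cholesterol taken up by endocytosis reaches this sensor only after it leaves late endosomes and lysosomes, the compartments on which PIKfyve acts, and alveolar macrophages meet much of their lipid as surfactant.

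Values are log2 signals from RMA, a method that corrects background, normalises arrays to each other and summarises the probes of a row. Differences are knockout minus wild type, so that 1 is a doubling. A gene was kept if its mean level was at or above 5.13, the median over rows; 12516 genes were kept, including all 26 members with a row. Background was set at the 95th percentile of 1428 sensory receptor genes (smell, pheromone and taste), which are typical of sensory cells; it was 5.37 on the array labelled wild type and 5.31 on that labelled knockout. Because differences drifted with level, from a median of -0.06 in the lowest decile of genes to 0.13 in the highest, each member is also set against its local median and local spread, the median and the scaled median absolute deviation of differences among genes of like level in 20 bins. The local spread holds noise and real differences alike.

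The row of Pikfyve itself read 5.68 (wild type) and 5.95 (knockout), and the position of its probes against the deleted exon is not known here. It therefore does not check the labels, and "wild type array" and "knockout array" below mean the arrays labelled so; paired values give the wild type array before the knockout array. All 14 measured alveolar macrophage markers of 16 listed lay above background on both arrays, among them Siglecf (9.27 and 8.54), Itgax, which encodes CD11c (10.03 and 10.39), and Pparg (10.53 and 10.68). Of the 14, 9 were higher and 5 lower, against 48.9% and 49.6% of all genes analysed. At least 1.5-fold higher were 2 and lower 3, against 4.45% and 2.66%. Their differences ran from -0.98 for Krt79 to 0.72 for Fabp5, and Siglecf lay 2.71 local spreads below its local median.

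Genes of cholesterol synthesis read higher in the array labelled knockout along most of the route, while SREBP2 and its escort did not. Of the 26 members, 21 were higher, against 48.9% of all genes analysed, and 5 were lower, against 49.6%. At least 1.5-fold higher were 5 members (Sc5d, Fdps, Msmo1, Stard4 and Mvk), against 4.45% of all genes, and 0 were at least 1.5-fold lower, against 2.66%. With each array centred on its median, 5.87% of all genes were 1.5-fold higher and 1.75% lower, and the members' counts were 7 and 0. At least 2-fold higher were 2 members, Sc5d and Fdps, against 0.927% of all genes, and 0 were 2-fold lower, against 0.336%.

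The members' median difference was 0.31, with a range from -0.19 to 1.08, beside a median of 0.00 and an interquartile range from -0.19 to 0.20 for all genes. After the local median was taken off, the members' median was 0.23. More than 1 local spread above the local median were 11 members, against 16.9% of all genes, and more than 2 spreads above were 5, against 4.90%. No member lay more than 1 spread below it, against 16.0% of all genes. The plot of difference against level shows the members mostly in the upper part of the cloud of genes of like level, with 5 points above the upper dashed line.

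**Figure D1:**
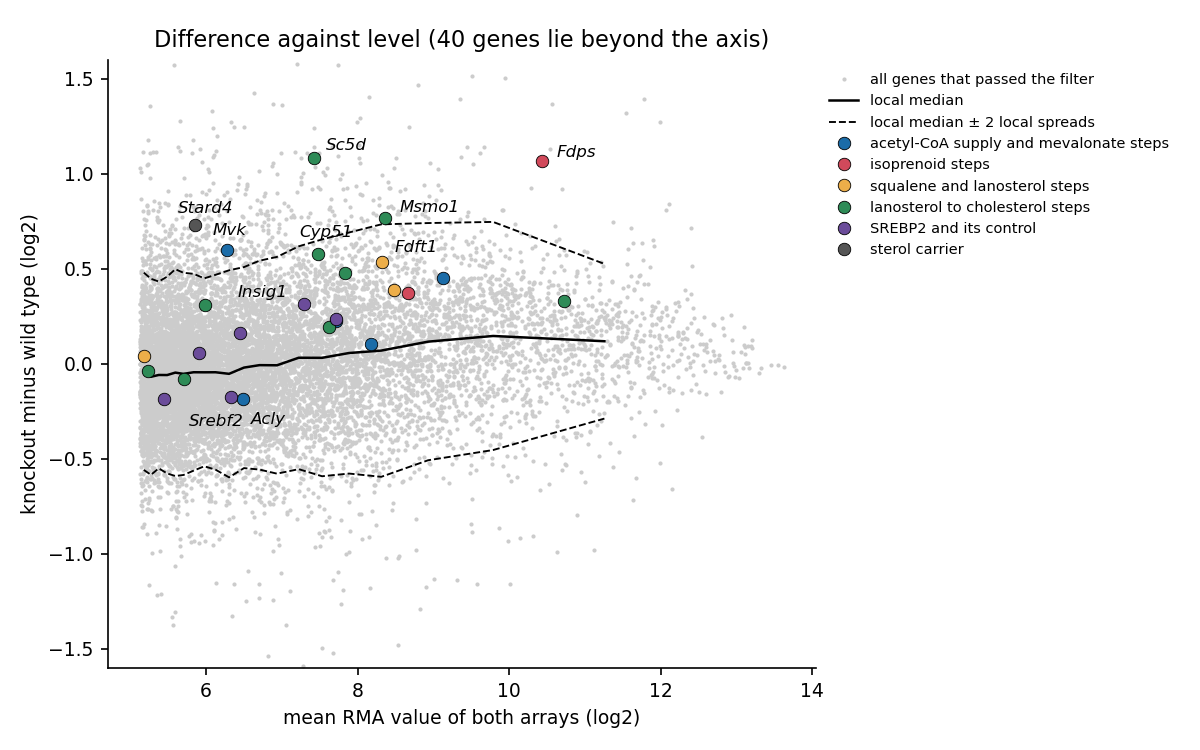
Difference between the arrays (knockout minus wild type, log2) against the mean RMA value of both arrays (log2), for 12516 genes (grey) and 26 members (coloured by role); 40 genes lie beyond the axis. The solid line is the local median and the dashed lines lie 2 local spreads from it; Sc5d, Fdps, Msmo1, Stard4 and Mvk lie above the upper dashed line and Srebf2 and Acly lie below 0.

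Markers of other cells that a lung sort can hold also differed between the arrays. Of all genes analysed, 48.9% were higher and 49.6% lower, and the members' median difference was 0.31. By at least 1.5-fold, 4.45% of all genes were higher and 2.66% lower. Airway and alveolar type 1 epithelium genes were higher for 10 of 14, with log2 summed signals of 12.75 and 13.09 that rest mostly on Scgb1a1. The 13 that passed the filter had a median of 0.38 and ran from -1.99 for Epcam to 2.47 for Bpifa1. Among these 13, 4 were at least 1.5-fold higher and 1 was lower by it. Foxj1 was below background on both arrays. Neutrophil genes were higher for 9 of 12, with summed signals of 12.80 and 13.26 that rest mostly on S100a8 and S100a9. All lay above background, and their median difference was 0.42. Among these 12, 5 were at least 1.5-fold higher and 1 was lower by it. Alveolar type 2 genes, from a cell that also makes sterols, split into 6 higher and 6 lower, with summed signals of 11.06 and 11.20. The 10 that passed the filter had a median of 0.08 and ran from -0.84 to 0.92. Despite the even split, 4 of these 10 (Sftpa1, Sftpc, Cxcl15 and Lyz1) were at least 1.5-fold higher, and 1 (Napsa) was lower by it. Sftpb, Sftpd, Slc34a2 and Lamp3 were below background on both arrays.

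T and NK cell genes were higher for 7 of 11 measured, with summed signals of 12.05 and 12.18 that rest mostly on Cd2. The 9 that passed the filter had a median of 0.04 and ran from -0.31 to 1.14. Among these 9, 2 were at least 1.5-fold higher and 0 were lower by it. Cd8a, Ncr1 and Klrb1c were below background on both arrays. Monocyte genes were lower for 9 of 11, with summed signals of 13.41 and 13.42 that rest mostly on Chil3, which alveolar macrophages also express. The 9 that passed the filter had a median of -0.69 and ran from -1.54 to 0.25. Among these 9, 0 were at least 1.5-fold higher and 5 were lower by it. F13a1 and Vcan were below background on both arrays. Immediate early genes, which respond to tissue handling, were lower for 13 of 15, with summed signals of 13.78 and 13.18 and a median of -0.56. Among these 15, 0 were at least 1.5-fold higher and 7 were lower by it. The part of these other cells and of handling in the members' differences was not tested. In bulk RNA, fewer cells of a type and less RNA per cell cannot be told apart.

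Promoter windows, 250 bases before to 50 after a start site, were found in a RefSeq table (GRCm38.p6) for 22 of the 26 members, 28 windows in all; Fdft1, Fdps, Sqle and Stard4 had no entry. Windows are shown for the 3 enzyme genes of largest difference that had one, Sc5d, Msmo1 and Mvk, for Cyp51 just under 1.5-fold, for Hmgcs1 and for the sensor gene Insig1. The sequences run 5′ to 3′ on the gene's strand and stop 1 base before the start site. Capitals mark matches on either strand to CCAAT (bound by NF-Y, a usual partner of SREBP; read as ATTGG on the other strand), GGGCGG (bound by Sp1; CCGCCC on the other strand), CACGTG (the E box, which SREBP can also bind) and TCACNCCAC (a form of the sterol element). The shown stretches are those of Sc5d at chr9:42264301-42264550 (minus strand), Msmo1 at chr8:64733579-64733828 (minus strand), Cyp51 at chr5:4104698-4104947 (minus strand), Mvk at chr5:114444019-114444268 (plus strand), Hmgcs1 at chr13:119690101-119690350 (plus strand) and Insig1 at chr5:28071162-28071411 (plus strand).
Sc5d: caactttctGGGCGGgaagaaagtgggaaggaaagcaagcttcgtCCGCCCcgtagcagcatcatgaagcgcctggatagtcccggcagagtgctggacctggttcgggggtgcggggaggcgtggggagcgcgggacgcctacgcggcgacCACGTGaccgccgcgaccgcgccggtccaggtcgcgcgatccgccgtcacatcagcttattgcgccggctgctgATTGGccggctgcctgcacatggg
Msmo1: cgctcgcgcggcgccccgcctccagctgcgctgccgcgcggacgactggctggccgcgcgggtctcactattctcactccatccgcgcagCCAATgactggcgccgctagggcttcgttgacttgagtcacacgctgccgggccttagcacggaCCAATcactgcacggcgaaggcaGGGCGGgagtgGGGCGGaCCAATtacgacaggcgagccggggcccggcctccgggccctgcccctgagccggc
Cyp51: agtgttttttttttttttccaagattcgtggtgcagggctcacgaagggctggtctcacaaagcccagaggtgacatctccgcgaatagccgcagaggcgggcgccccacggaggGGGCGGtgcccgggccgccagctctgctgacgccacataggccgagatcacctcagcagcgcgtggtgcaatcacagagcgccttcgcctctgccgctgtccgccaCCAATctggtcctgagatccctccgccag
Mvk: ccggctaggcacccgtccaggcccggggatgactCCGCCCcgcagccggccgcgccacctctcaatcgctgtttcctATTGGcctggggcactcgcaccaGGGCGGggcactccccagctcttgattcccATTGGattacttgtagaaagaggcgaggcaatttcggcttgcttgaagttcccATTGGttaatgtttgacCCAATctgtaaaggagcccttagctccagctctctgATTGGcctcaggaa
Hmgcs1: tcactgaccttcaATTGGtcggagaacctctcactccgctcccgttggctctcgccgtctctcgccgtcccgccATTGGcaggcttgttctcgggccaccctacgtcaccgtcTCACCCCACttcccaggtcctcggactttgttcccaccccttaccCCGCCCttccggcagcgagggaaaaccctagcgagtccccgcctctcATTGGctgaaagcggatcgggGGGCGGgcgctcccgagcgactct
Insig1: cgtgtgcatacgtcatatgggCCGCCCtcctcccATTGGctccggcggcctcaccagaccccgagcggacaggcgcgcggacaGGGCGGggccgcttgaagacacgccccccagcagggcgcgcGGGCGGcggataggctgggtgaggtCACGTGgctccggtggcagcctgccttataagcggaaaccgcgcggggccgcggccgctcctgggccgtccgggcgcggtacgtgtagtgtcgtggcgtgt

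The shown upstream stretches hold several of these short motifs each. Upstream of Mvk there were 5 CCAAT matches, upstream of Msmo1 3 and upstream of Hmgcs1 3. The 250 bases upstream of Sc5d, the member of largest difference, have 1 CCAAT, 2 GGGCGG and 1 CACGTG, and those upstream of Insig1 have 1, 3 and 1.

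Over all members with a window, CCAAT was found for 19 of 22 genes (86.4%), against 41.8% of the 9887 analysed genes with a window. Counted by window it was found in 67.9% of the members' 28 windows and 37.4% of all 32851 windows in the table. The 3 members without it were Scap, Mbtps1 and Mbtps2, which encode the SREBP escort and its proteases; their median difference was 0.06, beside 0.31 for the 19 with it. Acly, Lbr, Dhcr7 and Srebf2 held CCAAT and read lower in the knockout array, so a match did not go with a higher value gene by gene.

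GGGCGG was also found for 19 of 22 members (86.4%), against 63.7% of analysed genes. Counted by window it was found in 78.6% of the members' windows, 58.2% of those of analysed genes and 35.7% of all windows. The median difference was 0.23 with it and 0.37 for the 3 members without. CACGTG was found for 5 members, Sc5d, Insig1, Hsd17b7, Dhcr7 and Scap (22.7%), against 11.4% of analysed genes. By window the shares were 21.4% for the members, 9.72% for analysed genes and 7.15% for all windows. The differences of these 5 members ran from 1.08 for Sc5d to -0.19 for Scap. TCACNCCAC was found only in the window of Hmgcs1 among these 22 genes (4.55%), against 1.31% of analysed genes. By window the shares were 3.57% for the members, 1.10% for analysed genes and 1.24% for all windows. TCACGTGAC, the form of the E box that lysosomal gene regulators of the TFEB family prefer and that overlaps CACGTG, was found for 0 of the 22, against 1.68% of analysed genes and 0.782% of all windows. A match describes these letters in this window and is not a site shown to be bound.

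**Figure D2:**
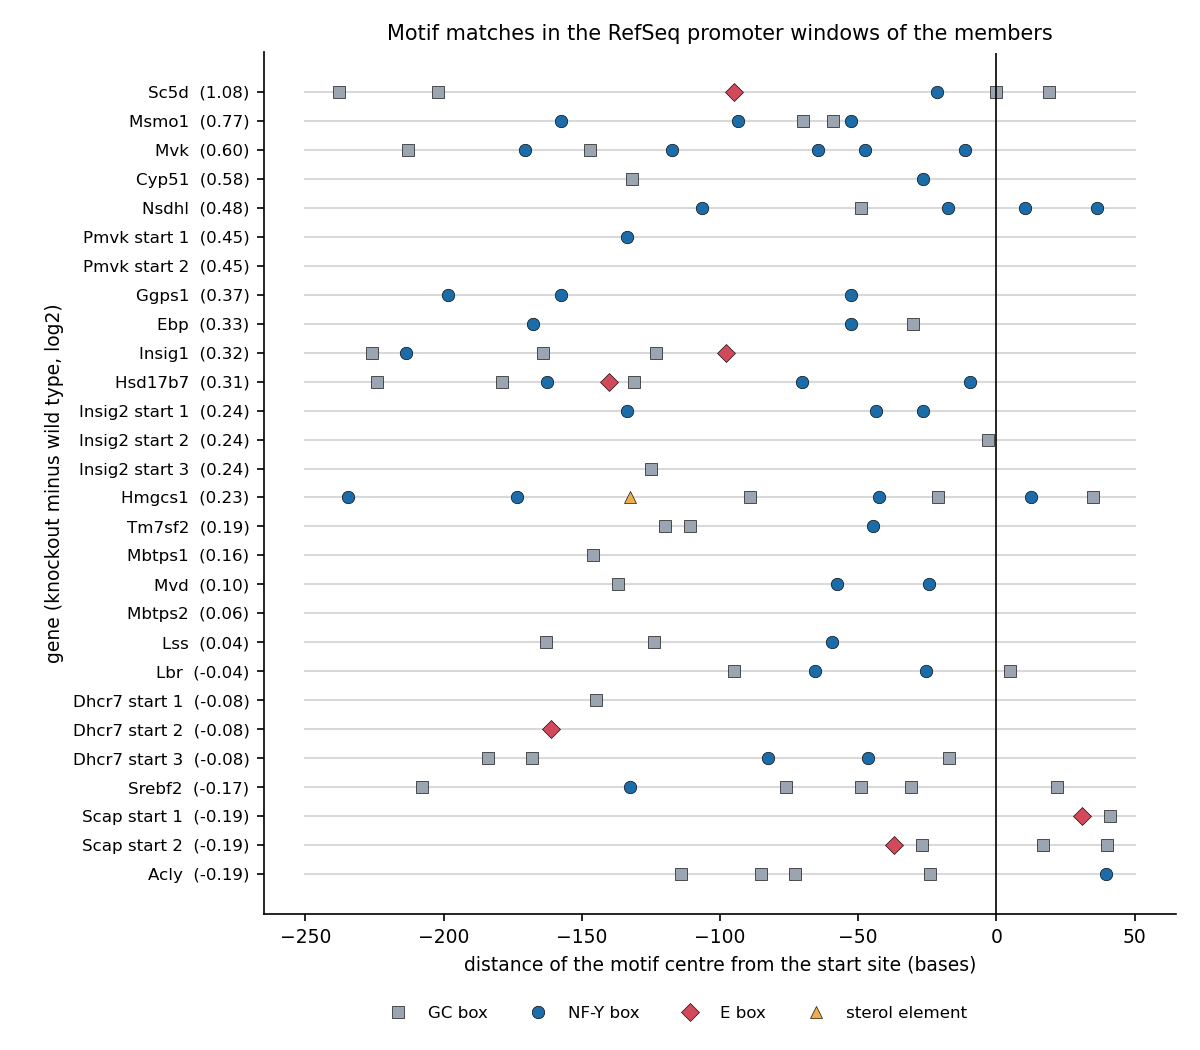
Motif matches in the 28 RefSeq promoter windows of 22 members, placed by the distance of their centre from the start site in bases; genes are ordered from the largest to the smallest difference (log2, in brackets). NF-Y boxes (CCAAT) mark 19 genes and are absent from the windows of Mbtps1, Mbtps2 and Scap, and the sterol element (TCACNCCAC) is marked only for Hmgcs1.

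Within the route the differences varied by step. Acly, which splits citrate to supply cytosolic acetyl-CoA, read 6.58 and 6.39, a difference of -0.19. It is the only enzyme among the members that feeds fatty acids and sterols alike. Hmgcs1, the HMG-CoA synthase of the cytosol, read 7.60 and 7.82, a difference of 0.23 that was within the local spread of 0.31. The next steps phosphorylate mevalonate.

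Mvk, mevalonate kinase, read 5.97 and 6.57, 1.52-fold higher and 2.40 local spreads above the local median. Pmvk, which adds the next phosphate, read 8.91 and 9.36 (1.37-fold). Mvd, the decarboxylase that yields isopentenyl diphosphate, read 8.13 and 8.23 (1.07-fold). Among the mevalonate enzymes, then, both kinases lay more than 1 local spread above the genes of like level, and the synthase and the decarboxylase did not.

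The isoprenoid steps included a large difference. Fdps, which makes farnesyl diphosphate, the branch point to sterols and to lipid anchors of proteins, read 9.91 and 10.97. This is 2.10-fold higher, 4.66 local spreads above the local median, and 0.759% of all genes analysed had a larger difference. Ggps1, which extends that product for geranylgeranyl anchors and does not serve cholesterol, read 8.48 and 8.86 (1.30-fold).

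Fdft1, squalene synthase, the step that commits farnesyl diphosphate to sterols, read 8.05 and 8.59 (1.45-fold). Sqle, the squalene epoxidase that is a rate-limiting step of the late route, read 8.29 and 8.68 (1.31-fold). Lss, the cyclase that closes lanosterol, read 5.16 and 5.20, below background on both arrays, so no fold is given. The steps before and after the cyclase were thus above background and the cyclase itself was not.

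Of the 9 genes that turn lanosterol into cholesterol, 7 were higher and 6 lay more than 1 local spread above the local median. Cyp51, the lanosterol demethylase, read 7.19 and 7.76 (1.49-fold), just under the 1.5-fold line that Mvk just passed. The reductases of the following step, Tm7sf2 and Lbr, differed little: Tm7sf2 read 7.52 and 7.71 (1.14-fold). Lbr, which is also a lamin receptor of the nuclear envelope, read 5.25 and 5.21, below background on both arrays, and its sign turned to higher with median centring, quantile normalisation or loess centring.

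The complex that removes the methyl groups at carbon 4 was higher at each of its enzymes. Msmo1, its oxidase, read 7.98 and 8.74, 1.70-fold higher and 2.10 local spreads above the local median. Nsdhl, its decarboxylase, read 7.59 and 8.07 (1.39-fold). Hsd17b7, its reductase, read 5.82 and 6.14 (1.24-fold). These lay 1.33 and 1.44 local spreads above the local median for Nsdhl and Hsd17b7.

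The last steps differed from each other. Ebp, the sterol isomerase, read 10.56 and 10.89 (1.26-fold). Sc5d, the desaturase that makes 7-dehydrocholesterol, read 6.88 and 7.96, the largest difference among the members at 2.12-fold and 3.38 local spreads above the local median. It ranked 93rd of the 12516 genes, with Fdps 96th. Dhcr7, which reduces the product of Sc5d to cholesterol, read 5.75 and 5.67, a difference of -0.08. The member of largest difference and a member that read lower thus encode consecutive steps.

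**Figure D3:**
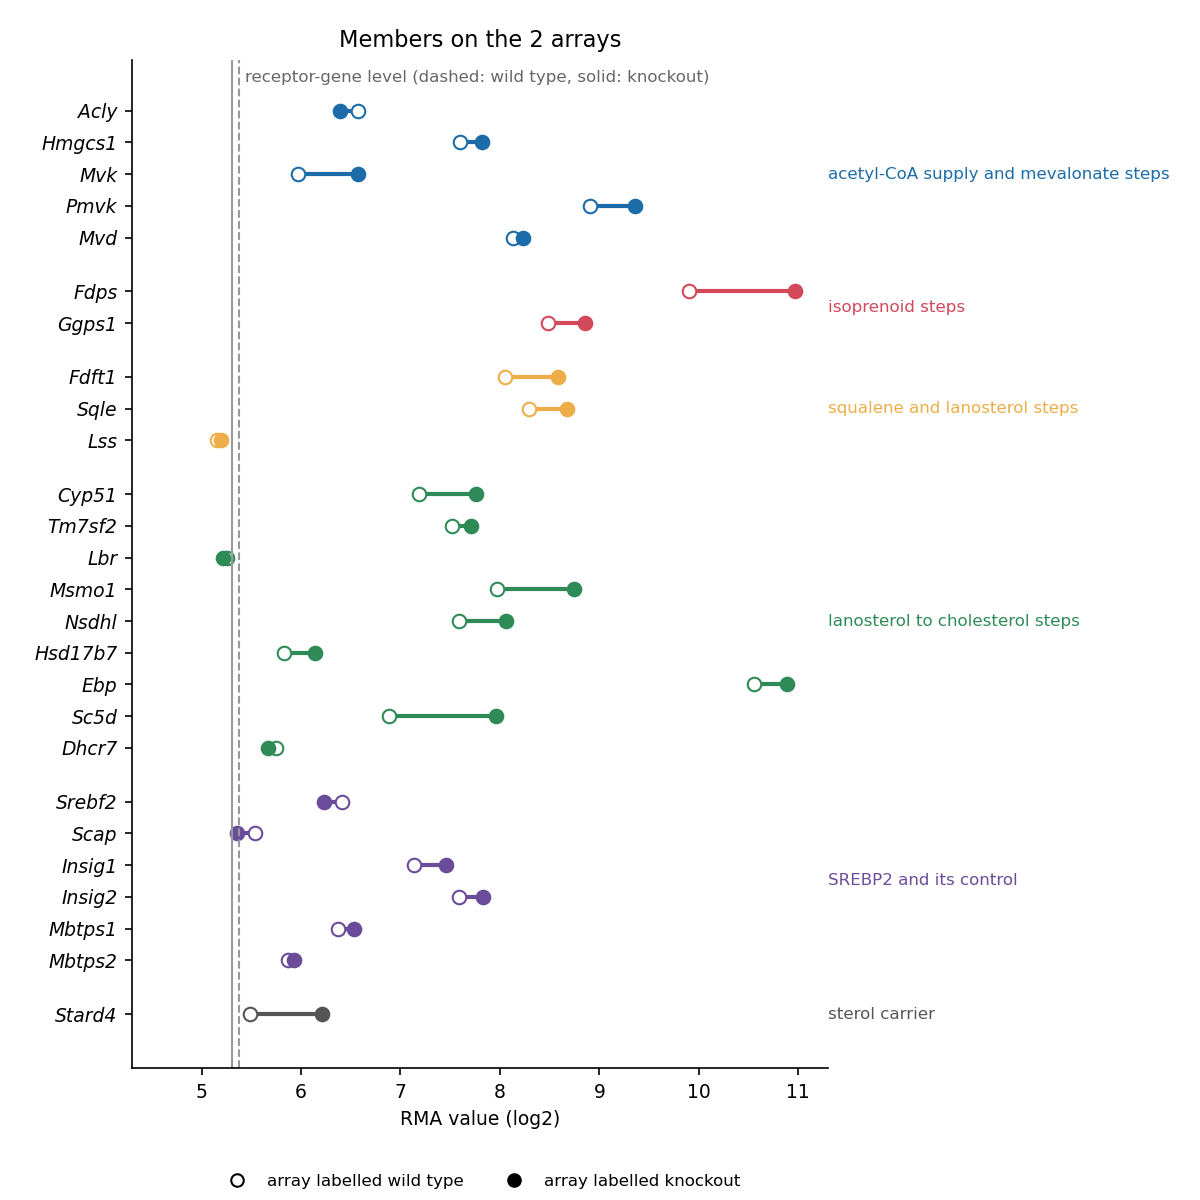
RMA values (log2) of the 26 members on the array labelled wild type (open) and the array labelled knockout (filled), grouped by role; grey lines are the background set by receptor genes, dashed for wild type (5.37) and solid for knockout (5.31). Filled points lie to the right for 21 members, farthest for Sc5d and Fdps, and Lss and Lbr lie below background on both arrays.

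SREBP2 and the genes that control it differed less than the enzymes. None of these 6 genes was 1.5-fold apart or more than 1 local spread from the local median, and their median difference was 0.11, beside 0.37 for the 19 enzymes; this contrast of small groups was not tested. Srebf2, which encodes SREBP2 and is itself among its targets, read 6.41 and 6.23, a difference of -0.17. Scap, the escort, has 2 rows, which read 6.24 and 5.91 in one and 4.84 and 4.80, below background, in the other. Neither the factor nor its escort was higher in the knockout array in any row.

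The retention factor Insig1, a sensitive SREBP2 target, read 7.14 and 7.45 (1.25-fold, 0.97 local spreads above the local median). Insig2, whose gene responds less to sterols, read 7.59 and 7.83 (1.18-fold). Both INSIG genes were slightly higher, within their local spreads of 0.29 and 0.31. Mbtps1, the site-1 protease, read 6.37 and 6.53 (1.12-fold), and Mbtps2, the site-2 protease, read 5.87 and 5.93 (1.04-fold).

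Stard4, a soluble carrier that moves sterol between membranes and is an SREBP2 target, read 5.48, just above background, and 6.21. The difference was 1.66-fold and 2.99 local spreads above the local median. The log2 difference, 0.73, was 0.47 when an offset of 32 was added on the linear scale, which damps low signals.

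Other genes of sterol synthesis or SREBP2 control, from a list apart from the members, read in the same direction. This list was also chosen with earlier results of these data known, so it is not separate support for the members' direction. Of 14 listed, 8 were measured and passed the filter; all 8 were higher, 2 by at least 1.5-fold and 0 lower by it, with a median of 0.38; of all genes 48.9% were higher, 4.45% by at least 1.5-fold, and 2.66% were lower by it. Rdh11, a retinal reductase of the endoplasmic reticulum that SREBPs induce, read 7.29 and 8.08 (1.72-fold). Tmem97, the sigma-2 receptor, which binds sterols and is induced when they are low, read 6.67 and 7.43 (1.70-fold).

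Aacs, which makes acetoacetyl-CoA for lipid synthesis, read 5.86 and 6.32 (1.38-fold). Erg28, a scaffold of the carbon 4 demethylation enzymes, read 7.68 and 8.09 (1.32-fold), beside the 3 enzymes of that complex above. The redox partners Cyb5r3, Pgrmc1, Cyb5a and Cyb5b, which also serve other pathways, differed by 0.05, 0.11, 0.17 and 0.35.

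The genes of fatty acid synthesis, which the related factor SREBP1 drives, did not share this direction as a list, though several could not be read above background. Fasn, Acacb, Acss2, Me1, Fads2 and Thrsp did not pass the filter and were below background on both arrays. Gpam passed the filter but was below background on both. Of 16 measured genes 10 passed the filter, 5 of them higher and 4 lower with a median of 0.01, with 0 at least 1.5-fold higher and 1, Acaca, 1.5-fold lower as read. Of all genes, 48.9% were higher and 49.6% lower, 4.45% and 2.66% by at least 1.5-fold. Srebf1 read 6.07 and 5.64, a difference of -0.43. Acaca, the acetyl-CoA carboxylase of fatty acid synthesis, read 5.45 and 4.84, the latter below background, at least 1.10-fold lower. Fasn, fatty acid synthase, read 5.28 and 4.93, below background on both. Scd1, a desaturase, read 5.20, below background, and 5.41, and Mid1ip1, an activator of Acaca, 5.40 and 5.56.

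Users of isoprenoids beyond sterols were nearer to all genes in their median, though not in the share that was higher. Of 13 prenylation, dolichol and ubiquinone genes that passed the filter, 9 (69.2%) were higher, against 48.9% of all genes, with a median of 0.02. As read, 1 (7.69%) was at least 1.5-fold higher, against 4.45% of all genes. That gene, Coq2, which prenylates the ubiquinone ring, read 5.17, below background, and 5.77, at least 1.32-fold higher. Dolk and Dhdds, which make dolichol phosphate, read 5.94 and 6.35, and 8.93 and 9.26. Fnta, a subunit shared by farnesyl and geranylgeranyl transferases, read 8.23 and 8.56.

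Genes for sterol-driven degradation and SREBP escort had a median of -0.08, with 4 of 9 higher, against 48.9% of all genes. None was 1.5-fold apart, against 4.45% of all genes higher and 2.66% lower by it. More than 1 local spread below the local median were 4 (44.4%), against 16.0% of all genes. More than 1 above it was 1 (11.1%), against 16.9%. Erlin2, of a complex that hands INSIG and the reductase of HMG-CoA to degradation, read 6.75 and 7.21, a difference of 0.46. The ubiquitin ligase genes Rnf139 and Marchf6, whose products act on that reductase or on squalene epoxidase, read 7.87 and 7.50, and 7.19 and 6.87. Aup1, which recruits such ligases, read 10.32 and 10.12.

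Cholesterol uptake, lysosomal export and esterification genes had a median of 0.08. Of 15, 10 (66.7%) were higher and 1 (6.67%) was 1.5-fold higher, against 48.9% and 4.45% of all genes. That gene, Lrpap1, a chaperone of lipoprotein receptors, read 8.27 and 9.10 (1.78-fold). Npc2, the lysosomal cholesterol carrier, read 12.18 and 12.53, and Lipa, the lysosomal acid lipase that frees cholesterol from its esters, read 9.67 and 9.94. Scarb1, a receptor for high-density lipoprotein, read 7.44 and 7.22.

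LXR is the receptor that answers to sterol excess, and its genes had a median of -0.12. Of 8, 3 were higher and 5 lower, against 48.9% and 49.6% of all genes. By at least 1.5-fold, 1 was higher and 1 lower, against 4.45% and 2.66%. Its gene Nr1h3 read 6.57 and 6.96. Among its targets Abca1, the exporter of cholesterol to lipid-poor apolipoprotein, read 6.04 and 5.58, and Pltp, a phospholipid transfer protein, read 10.40 and 9.80 (1.51-fold lower). Apoc1, an apolipoprotein, read 10.03 and 10.65 (1.54-fold higher). The differences between these lists and the members were not tested.

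**Figure D4:**
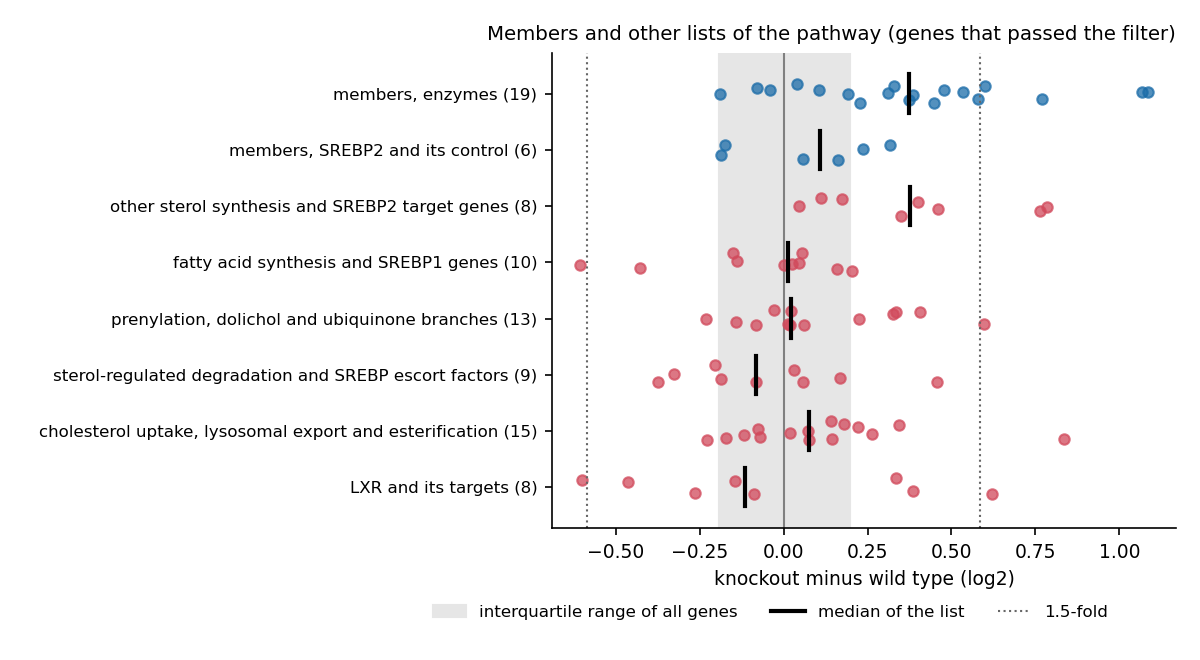
Difference between the arrays (knockout minus wild type, log2) of each gene that passed the filter, for the members (blue; the sterol carrier Stard4 is left out) and 6 other lists of the pathway (red), with the number of genes in brackets. Black bars are medians, the grey band is the interquartile range of all genes (-0.19 to 0.20), and dotted lines mark 1.5-fold; the medians of the member enzymes (0.37) and of the other sterol genes (0.38) lie beyond the band and the remaining medians lie inside it.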

How the data were processed

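Total RNA of sorted cells was amplified from 10 ng and hybridised to Affymetrix arrays, per the labels' protocols. The authors deposited 1 table of log2 values, 41345 rows on 2 arrays, made with RMA per the submitters' processing notes, with no version or genome build named. That the scale is log2 follows from RMA and from the range, 0.77 to 13.86 and 0.83 to 13.78. Rows were named through the platform's annotation: 23521 have 1 symbol, 1814 several and 16010 no entry. Rows with 1 symbol were used, and rows of a gene were averaged. All 26 members' Entrez identifiers matched RefSeq under the same symbol. With 1 array per genotype no test is possible, so counts past 1.5-fold or 2-fold are set beside the share of all genes. The number of arrays limits the precision. Members, gene lists and motifs were chosen with earlier results of these data known. Every member is named; of other lists, the 4 genes of largest absolute difference and the genes that give the list its name are named, and other genes named were chosen after their values were seen. Alternatives were other filters, centring, quantile and loess (span 0.3) normalisation, an offset of 32, and the row with the highest mean. The code was tested on simulated data. Python 3.11.15, pandas 2.3.3 and statsmodels 0.14.6 were used.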

Additional observations from a re-analysis of the deposited data

How the results depend on the processing

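The members' median stayed between 0.24 and 0.38 under the alternatives run, the lower end with the offset and the higher with median centring, and 0 members were 1.5-fold lower under any of them. Median centring also moved the median of all genes to 0.07. It left 22 of 26 members higher, against 58.9% of all genes. With the filter at the 75th percentile of rows, 16 of 17 members were higher, against 57.1% of all genes. The count of members at least 1.5-fold higher was 3 when the filter stood at the 75th percentile of rows, where 17 members were left, and 3 with the offset of 32; of all genes, 5.89% and 2.33% were 1.5-fold higher under these settings, beside 4.45% as reported. The count at least 2-fold higher was 1 with quantile normalisation, 1 with loess centring and 1 with the offset; Fdps was just under 1 with quantile normalisation and 0.95 with loess centring, and Sc5d was 0.91 with the offset. Of 197 values of single members under these alternatives, 196 moved by less than the local spread and 1, Stard4 with the offset (0.47), by more. Many of these could not have moved further. A change of filter leaves each value as it is, and the choice of row can alter only Scap among the members. Median centring adds the same 0.07 to every gene, less than the smallest local spread of 0.20. Only quantile normalisation, loess centring and the offset could move single members by differing amounts. No paired analysis was possible because each group has 1 array. Signal over background limits Lss, Lbr and the lower row of Scap.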
